A study of Mus musculus with 6 samples.

Results

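The proteasome genes were taken as every mouse gene symbol in the deposited tables that consists of Psma to Psmg followed by a number, with Nfe2l1 added. The rule gave 49 of 30281 symbols, represented by 231 transcripts, and used no measured value. They comprise 8 genes of the 20S alpha ring, 7 constitutive and 4 inducible or tissue-specific genes of the 20S beta ring, 6 ATPases and 11 other subunits of the 19S particle, 5 activators and inhibitors, 7 assembly factors and the transcription factor Nfe2l1.

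RNA-Seq was available for 6 mouse libraries. A Tsc2-/- and a Tsc2+/+ line of mouse embryonic fibroblasts (MEFs), both also p53-/- and both labelled as receiving no treatment, gave 1 library each. The other 4 libraries came from MKOC and TJ cells, kidney epithelial lines labelled Tsc2-null, of which TJ is described as derived from a secondary tumor in C57BL6 mice. Each kidney line gave 1 untreated library and 1 library after 100 nM rapamycin, and the stated protocol is 18 hr in serum-free medium with diluent or drug. No age is given for the cells or their source animals, and it is not stated whether libraries came from separate cultures. The p-values for rapamycin therefore rest on how far its change differed between MKOC and TJ cells, the only replicates of the treatment. Those for kidney lines against MEFs rest on the spread between the untreated kidney lines and between the MEF libraries.

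The 20S core of the proteasome is a barrel of alpha and beta rings, and its catalytic sites lie in the beta subunits Psmb5, Psmb6 and Psmb7. The 19S particle caps the barrel, recognizes ubiquitin chains and, through its ATPases, unfolds substrates and feeds them inward, while the activators Psme1 to Psme4 open the barrel in other ways. In cells exposed to interferon gamma, Psmb8, Psmb9 and Psmb10 replace the constitutive catalytic subunits, and Psme1 and Psme2 form the PA28 activator, which is also induced by interferon. NRF1, encoded by Nfe2l1, is a transcription factor anchored in the endoplasmic reticulum that drives proteasome genes when proteasome activity is short. Rapamycin inhibits mTORC1, the kinase complex that the TSC1 and TSC2 proteins restrain.

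Estimated counts ranged from 22887020 to 37505004 per library, of which the proteasome genes held between 0.548% and 0.742%. The kidney libraries had at least 1 TPM (transcripts per library total, a level corrected for transcript length and scaled to the same total in every library) of 6 of 8 epithelial markers, among them Cdh1 at 101 to 128 TPM and Pax8 at 121 to 164 TPM, although Epcam did not exceed 0.0268 TPM. The MEF library labelled Tsc2-/- had 2 of these markers at 1 TPM or more, Krt18 at 20.6 TPM and Krt19 at 55.6 TPM, and the one labelled Tsc2+/+ had 0. Of 8 fibroblast markers, the MEF libraries had 7 and 8 at 1 TPM or more, with Col1a2 at 788 and 996 TPM, and Thy1 at 0 TPM in the library labelled Tsc2+/+. The kidney libraries had 2 or 3 of the fibroblast markers at 1 TPM or more, and their sum of 3617 to 7574 TPM, against 3620 and 5346 TPM in MEFs, was carried by Vim at 3609 to 7523 TPM. Of 8 immune markers, the kidney libraries had 3 at 1 TPM or more (Csf1r at 11.3 to 30.3 TPM, Cd79a and Cd68), with a sum of 30.6 to 41.7 TPM, whereas the pan-leukocyte marker Ptprc did not exceed 0.0732 TPM in any of the 6 libraries. Tsc2 RNA was at 22.6 TPM in the library labelled Tsc2+/+ and 10.5 TPM in the library labelled Tsc2-/-, and was present in the lines labelled Tsc2-null at 49.1 and 44.0 TPM untreated and 19.5 and 19.1 TPM with rapamycin, so the genotypes below are those of the labels. Transcripts shorter than 300 bases took 20.9% of TPM in the library labelled Tsc2+/+ and between 4.09% and 8.0% in the others, and for the tests and most comparisons between libraries the values are therefore in CPM, counts set to the same total per library and scaled by TMM, the edgeR normalization that assumes most genes do not change.

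In all 6 libraries the constitutive subunits of the core and cap were abundant. The 14 constitutive 20S genes had a median of 188 to 290.4 TPM, and the highest exceeded the lowest by 1.92-fold in the library labelled Tsc2+/+ and by 2.96-fold to 3.655-fold in the other 5. Psma7, the alpha4 subunit, was the highest alpha gene in every library, from 279 TPM in the library labelled Tsc2+/+ to 509 TPM in untreated MKOC cells. In the library labelled Tsc2+/+ this rank depended on short transcripts, with Psma5 at 276 TPM. Without transcripts under 300 bases, Psma5 was the higher there, at 349 TPM against 345 TPM for Psma7. Psmb2, a subunit of the beta ring without catalytic activity, was the lowest constitutive beta gene in every library, at 141 to 206 TPM. The 6 ATPases had medians of 144 to 269 TPM, and Psmc6 was highest in 5 of the 6 libraries. In the library labelled Tsc2+/+ the ATPases ran from 64.0 TPM for Psmc4 to 248 TPM for Psmc6. The 11 other 19S subunits had medians of 111 to 168 TPM, and in treated MKOC cells ran from 70.2 TPM for Psmd3 to 328 TPM for Psmd8. The assembly factors were lower, with medians of 38.7 to 54.4 TPM and Psmd9 lowest in each library, at 12.8 to 31.1 TPM. Nfe2l1 stood at 322 and 348 TPM in the MEF libraries and at 147 to 259 TPM in the kidney libraries.

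**Figure D1:**
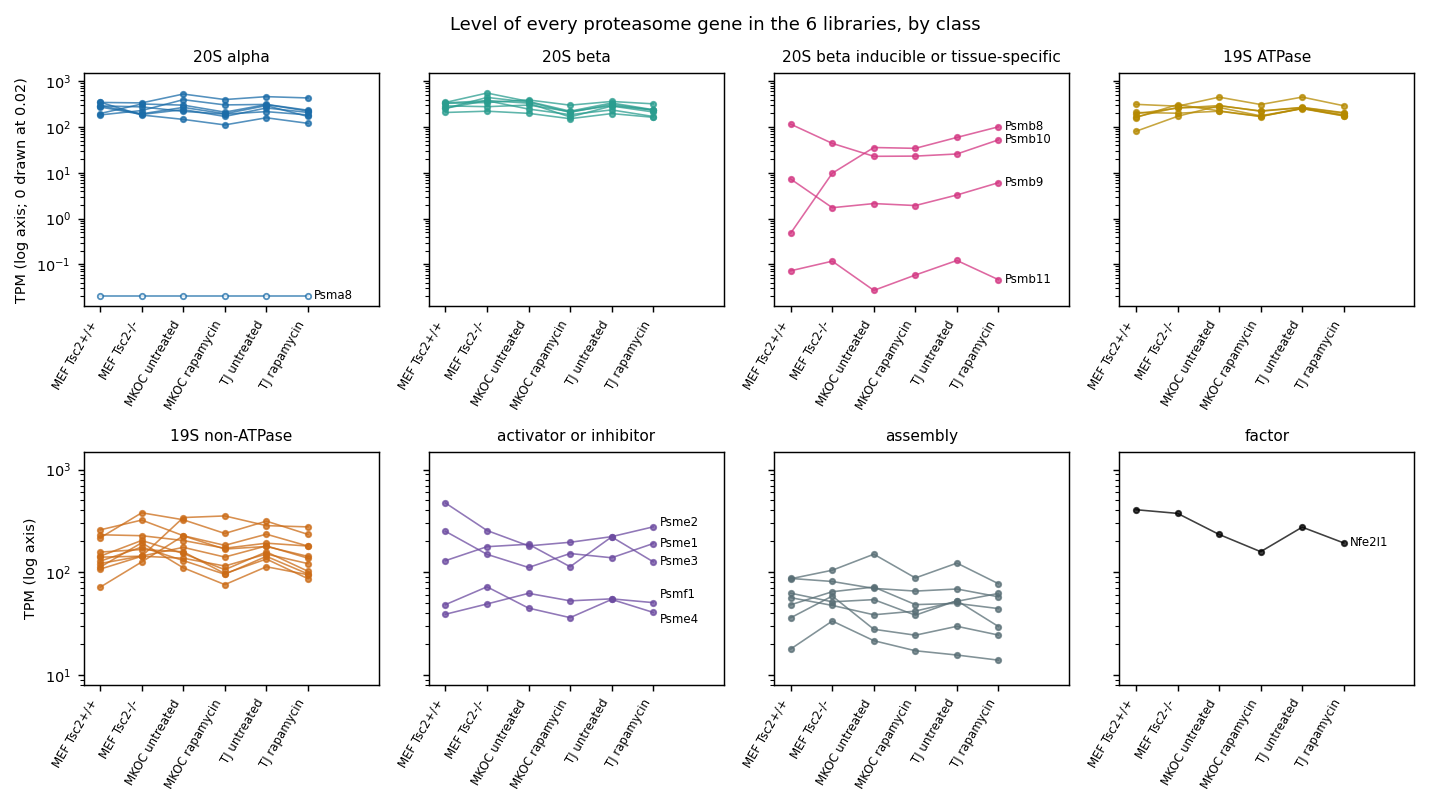
Level of each of the 49 proteasome genes in the 6 libraries, in TPM computed over transcripts of at least 300 bases on a log axis (each line 1 gene, each panel 1 class, no error bars because each point is 1 library; Psma8 at 0 is drawn at 0.02). The constitutive 20S and 19S genes run closer together than Psmb8 to Psmb11, which spread widely, and Psmb8 is lowest in the Tsc2+/+ MEF library.

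The inducible and tissue-specific beta genes varied far more. Psma8, the alpha subunit of the testis, had 0 counts in every library, which allows at most 0.0634 to 0.128 TPM, and Psmb11, the beta subunit of the thymus cortex, had between 2.12 and 8.42 counts. Neither passed the filter on low counts in the tests below, so 47 of the 49 genes were tested. Psmb8 was at 0.381 TPM in the library labelled Tsc2+/+ and 9.11 TPM in the library labelled Tsc2-/-, at 34.3 and 56.0 TPM in untreated MKOC and TJ cells, and at 31.8 and 93.2 TPM in the same lines with rapamycin. Psmb10 ran from 91.4 TPM in the library labelled Tsc2+/+ to 40.9 TPM in the library labelled Tsc2-/-, and was at 22.0 and 24.3 TPM in untreated and 21.5 and 48.3 TPM in treated MKOC and TJ cells. Psmb9 stayed between 1.61 and 5.78 TPM, from 11.1 to 221 counts. The lowest library of Psmb8 was thus the highest of Psmb9 and Psmb10. Levels of Psme2 are given in the text in CPM, and in the plot of levels by class without short transcripts, because a transcript of 185 bases (ENSMUST00000159297) turned 22.5, 22.8 and 15.0 counts into 364, 506 and 710 TPM in the library labelled Tsc2-/-, in treated MKOC cells and in untreated TJ cells, and because Psme2 may share reads with its close copy Psme2b.

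Rapamycin was compared with no treatment in the kidney lines. Of the 47 tested proteasome genes of all classes, 32 fell, 1 rose and 14 did not pass the test. This was edgeR's quasi-likelihood test that accounted for the cell line, at a Benjamini-Hochberg adjusted p under 0.05. Of all 12952 genes tested, 17.4% fell and 17.5% rose. The median log2 fold change was -0.45 over the proteasome genes and 0.02 over all genes. In CPM, both treated libraries lay below both untreated libraries for 37 of the 47 genes, all 32 that fell among them, compared with 26.8% of all genes. Summed over the 31 constitutive 20S and 19S genes, the level was 6272 CPM in untreated and 4590 CPM in treated MKOC cells, and 5930 CPM in untreated and 4551 CPM in treated TJ cells. Without the cell line in the model 14 of the 32 passed, and with any 1 of the 4 libraries left out, where the line can no longer be a term, at most 1 did.

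**Figure D2:**
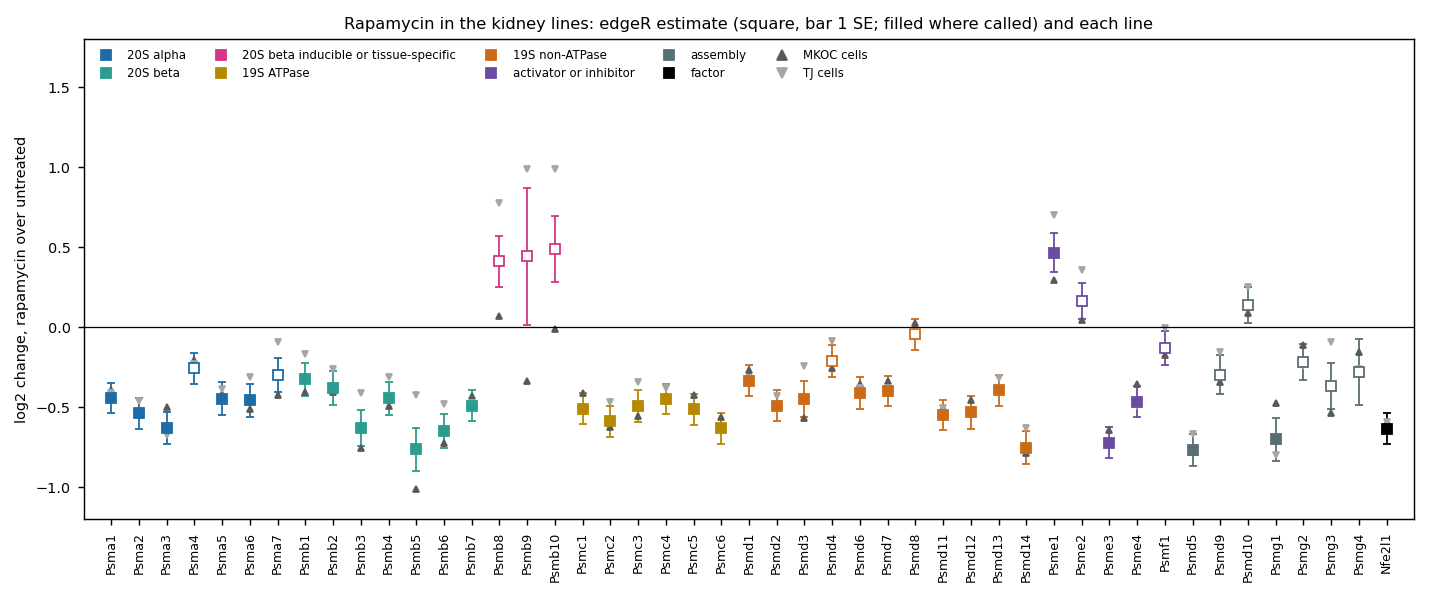
Log2 change with rapamycin of the 47 tested proteasome genes, ordered by class. Squares give edgeR's estimate over both kidney lines with bars of 1 standard error, computed from the F statistic of the test. They are filled where the gene passed the test, and triangles give MKOC (up) and TJ cells (down) alone. Every constitutive 20S, ATPase and Nfe2l1 square lies below 0, and the inducible genes Psmb8 to Psmb10 and Psme1 lie above it.

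In the 20S core, all 7 constitutive beta genes and 5 of 7 tested alpha genes fell. Psmb5, which carries the chymotrypsin-like site and lies on chromosome 14 (54614119 to 54618022, minus strand, GRCm38), was at 153 and 130.1 CPM in untreated MKOC and TJ cells and at 75.4 and 96.8 CPM with rapamycin. Its log2 fold change was -0.76 (SE 0.14, adjusted p = 0.00217, edgeR's quasi-likelihood test), the largest fall of the core, with -1.01 in MKOC and -0.42 in TJ cells. Psmb6, which carries the caspase-like site, was at 149 and 135 CPM untreated and 89.6 and 96.1 CPM with rapamycin, and Psmb7, which carries the trypsin-like site, was at 162 and 152 CPM untreated and 120.3 and 109 CPM with rapamycin. The treated libraries were the low ones for all 3 catalytic genes, without overlap. Psmb1 fell least of the beta genes, by 0.33 on the log2 scale (adjusted p = 0.0307 in edgeR), from 224 and 203 CPM to 169 and 181 CPM, and was the single one of the 32 that an alternative model with the cell line did not call. Among the alpha genes, Psma3 fell most, by 0.63, from 150.2 and 158 CPM to 106 and 99.2 CPM. Psma4 and Psma7 did not pass the test, at log2 fold changes of -0.26 and -0.30 with edgeR adjusted p of 0.0647 and 0.0539, although Psma7 passed without the filter on low counts (adjusted p = 0.0348 in edgeR). Psma7 was at 257 and 192 CPM in MKOC cells and 221 and 207 CPM in TJ cells, untreated and treated, and whether the lines differ in this change could not be tested.

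In the 19S particle, all 6 ATPases and 9 of the 11 other subunits fell. The ATPases form the ring that unfolds substrates, and their log2 fold changes lay within a narrow range, from -0.63 for Psmc6 to -0.45 for Psmc4. Psmc6 was at 417 and 410.0 CPM in untreated MKOC and TJ cells and at 283 and 266 CPM with rapamycin. Psmd14, the deubiquitinase that removes ubiquitin chains as substrates enter, fell most of the non-ATPases, from 143 and 116 CPM to 82.4 and 74.6 CPM (log2 fold change -0.75, SE 0.10, edgeR adjusted p = 0.000565). Psmd2, a scaffold subunit of the 19S base, fell from 602 and 572 CPM to 434 and 425 CPM. The treated libraries were again below both untreated libraries in these genes. Psmd4, a ubiquitin receptor, and Psmd8 were the exceptions and did not pass the test. Psmd4 was at 152 and 143 CPM untreated and 128 and 134 CPM with rapamycin, and Psmd8 at 277 and 226 CPM untreated and 282 and 220.3 CPM with rapamycin. Psmd8 did not pass the test of TJ against MKOC cells either (log2 fold change -0.35, edgeR adjusted p = 0.0527).

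Among activators and inhibitors, the members went in different directions. Psme3, which forms the nuclear PA28 gamma activator, fell from 210.0 and 239 CPM in untreated MKOC and TJ cells to 134 and 145 CPM (log2 fold change -0.72, SE 0.10, edgeR adjusted p = 0.000463). Psme4, the PA200 activator, fell from 179 and 215 CPM to 139 and 153 CPM. Psme1, the alpha chain of the interferon-inducible PA28 activator (chromosome 14, 55578123 to 55581529, plus strand), rose from 62.3 and 67.3 CPM to 76.8 and 109.9 CPM (log2 fold change 0.47, SE 0.12, edgeR adjusted p = 0.0137), and both treated libraries lay above both untreated ones, against 32.9% of all genes with that order. Its partner Psme2 was at 84.2 and 99.7 CPM untreated and 87.0 and 128 CPM with rapamycin, which did not pass the test (log2 fold change 0.17). Psmf1, an inhibitor of the 20S core, was at 70.3 and 61.8 CPM untreated and 62.3 and 61.6 CPM with rapamycin and did not pass.

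Of the 7 assembly factors, 2 fell and 5 did not pass the test. Psmd5, a chaperone of the 19S base, fell from 181 and 147 CPM in untreated MKOC and TJ cells to 105 and 92.5 CPM (log2 fold change -0.77, SE 0.10, edgeR adjusted p = 0.000378). This was the largest fall of all proteasome genes in this fit, but Psmb5 was within the SE of it at -0.76. In limma on log2 TPM, Psme3 fell more, at -0.80 against -0.75 for Psmd5. Psmg1, which with Psmg2 guides formation of the alpha ring, fell from 29.4 and 29.6 CPM to 20.9 and 16.5 CPM. Psmg2 was at 40.9 and 39.5 CPM untreated and 37.9 and 33.3 CPM with rapamycin. The 2 partners thus differed in size of change, with log2 fold changes of -0.70 and -0.22, and that difference was not tested. Psmd10, the 19S chaperone also called gankyrin, had the highest value of the class at 0.14. Psmg3, another chaperone of the 20S core, was at 31.0 and 21.0 CPM untreated and 21.0 and 19.7 CPM with rapamycin. It did not pass the test (edgeR adjusted p = 0.0713), but passed as lower without the filter on low counts (edgeR adjusted p = 0.0365) and in limma on log2 TPM (adjusted p = 0.0438). Nfe2l1 fell from 493 and 590.3 CPM to 327 and 391 CPM (log2 fold change -0.63, SE 0.10, edgeR adjusted p = 0.000972).

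**Figure D3:**
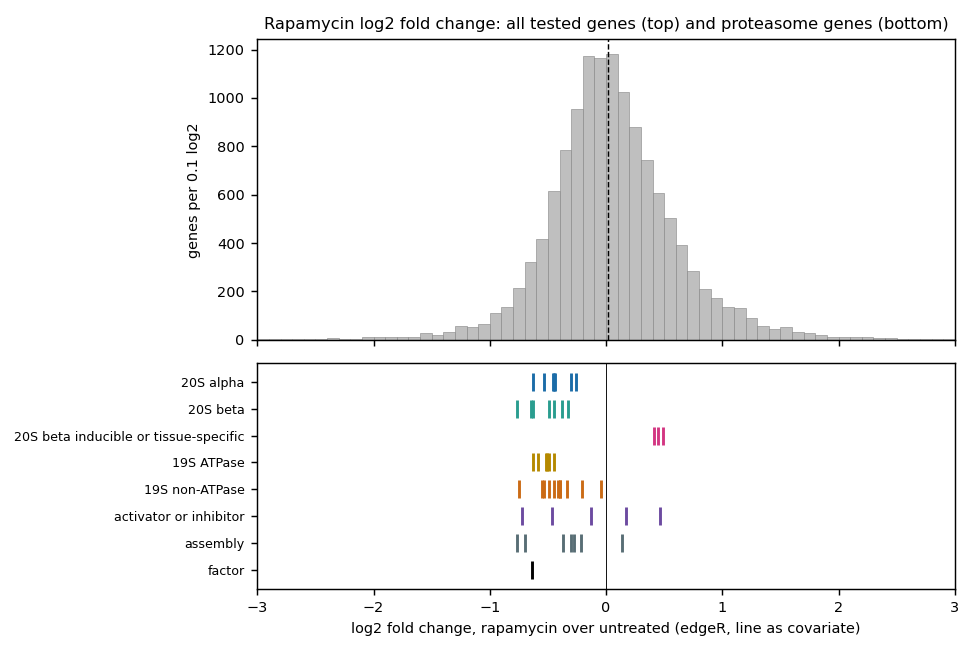
Distribution of the log2 fold change with rapamycin over all 12952 tested genes (top, dashed line at their median, 26 genes beyond 3 on either side not drawn) and the value of each proteasome gene by class (bottom, 1 tick per gene). The ticks of the constitutive classes lie left of the median of all genes, and those of the inducible beta genes lie right of it.

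Promoter sequence was examined because these genes moved together. RefSeq promoters (GRCm38.p6, 250 bases before to 50 after the start) were matched for 41 of the 49 genes. The letters TGANNNNGC, a core of the antioxidant response element that NRF1 and its relatives bind, occurred on either strand in 24 of the 41 promoters (58.5%) and in 45.0% of 27025 promoters in all. It was held by 15 of 26 genes that fell and by 9 of the other 15. The narrower form TGACNNNGC, every match of which is also a match of the wider form, occurred in 6 of the 41 (14.6%) and in 14.0% of all promoters, and 5 of those 6 genes fell. GAAANNGAAA, a core of the interferon-stimulated response element, occurred in 5 of 41 (12.2%) against 3.99% of all promoters, namely in Psmb3, Psmd4, Psme1, Psmd9 and Psmg4, and TTCNNNGAA, the site of STAT factors, in 3 of 41 (7.32%) against 9.55%. The stretches below are those of the narrower form in 4 of the 5 genes that fell, with the match in capitals, and lie within the 250 bases before the RefSeq start and outside GENCODE exons, which leaves out the match in Psme4. They show how differently the match is placed: 47 and 9 bases before the start in Psmb5 and Psmb6, and 227 and 247 bases before it in Psmc6 and Psmd12, where it reads as its reverse complement.
Psmb5, chr14:54618023-54618082, minus strand: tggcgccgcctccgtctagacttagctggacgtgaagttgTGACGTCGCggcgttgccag
Psmb6, chr11:70525308-70525356, plus strand: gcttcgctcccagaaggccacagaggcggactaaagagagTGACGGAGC
Psmc6, chr14:45329574-45329625, plus strand: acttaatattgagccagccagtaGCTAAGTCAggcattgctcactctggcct
Psmd12, chr11:107479278-107479309, plus strand: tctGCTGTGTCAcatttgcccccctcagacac

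Psmb8, Psmb9 and Psmb10 did not pass the test with rapamycin, and their values differed by line. Without the filter on low counts, Psmb8 and Psmb10 did pass, with edgeR adjusted p of 0.0131 and 0.00864. In MKOC cells, Psmb8 was at 23.3 CPM untreated and 24.6 CPM with rapamycin, and in TJ cells at 38.5 and 66.9 CPM. Psmb10 was at 16.7 and 16.6 CPM in MKOC cells and at 18.4 and 37.6 CPM in TJ cells. Psmb9 was at 1.70 and 1.14 CPM in MKOC cells, from 49.3 and 24.6 counts, and at 1.93 and 4.82 CPM in TJ cells, from 50.1 and 122 counts. The treated TJ library was thus the highest kidney library for each of the 3. The log2 fold changes over both lines were 0.41, 0.45 and 0.49, with edgeR adjusted p of 0.0673 for Psmb8, 0.452 for Psmb9 and 0.0926 for Psmb10. With 1 library per line and treatment, whether the lines differ in this response could not be tested.

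Relative to the constitutive subunits they replace, the inducible subunits had higher TPM ratios with rapamycin in both lines. Psmb8 was 10.7% of Psmb5 in TPM in untreated and 20.6% in treated MKOC cells, and 20.6% and 47.4% in TJ cells. For Psmb9 against Psmb6 the values were 0.587% and 0.868% in MKOC cells and 0.977% and 2.54% in TJ cells, but on counts the MKOC values were 1.16% and 1.25%, from 49.3 and 24.6 counts of Psmb9. For Psmb10 against Psmb7 they were 9.28% and 12.4% in MKOC cells and 10.9% and 30.9% in TJ cells. In MKOC cells the log2 changes of Psmb8, Psmb9 and Psmb10 themselves were 0.07, -0.34 and -0.01, and in TJ cells they were 0.78, 0.99 and 0.99. In the MEF libraries labelled Tsc2+/+ and Tsc2-/-, Psmb8 was 0.188% and 2.57% of Psmb5, Psmb9 was 2.12% and 0.312% of Psmb6, and Psmb10 was 34.2% and 11.7% of Psmb7, so that the 3 pairs did not rank the libraries alike. The ratios carry no test.

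**Figure D4:**
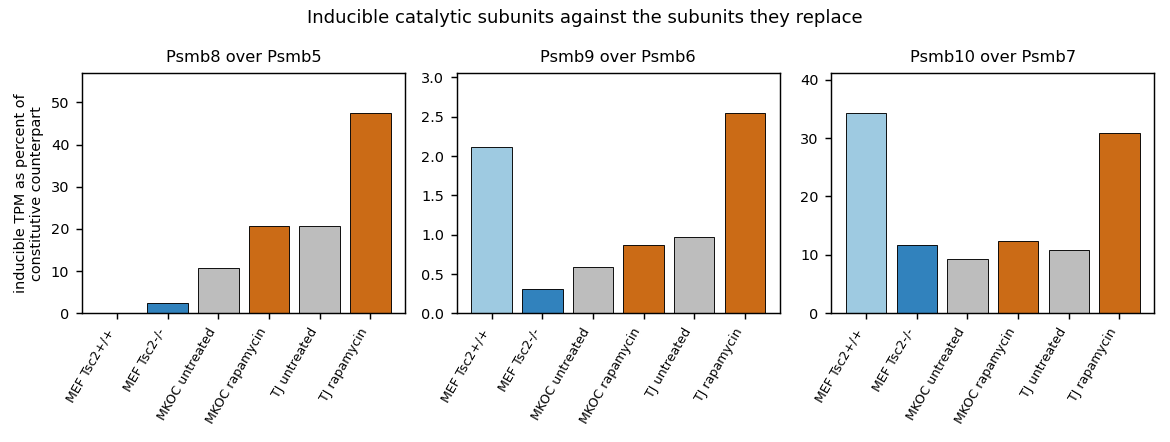
TPM of Psmb8, Psmb9 and Psmb10 as a percent of the TPM of Psmb5, Psmb6 and Psmb7, the subunits they replace, in each of the 6 libraries (1 bar per library, no replicates, a separate axis from 0 in each panel). The bar of each treated kidney library is higher than that of the untreated library of the same line, most in TJ cells, and the Tsc2+/+ MEF library is near 0 for Psmb8 and highest for Psmb10.

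Of a list of 17 genes of the interferon response and of antigen presentation by MHC class I, 8 rose with rapamycin and 0 fell (median log2 fold change 0.52), by edgeR's quasi-likelihood test, where 17.5% of all genes rose and 17.4% fell. Those that rose were Gbp2, a guanylate-binding protein (2.93), Ifit1 (1.15), the transcription factor Irf1 (1.08), the peptide-loading protein Tapbp (0.92), Irf9 (0.79), the peptide-trimming enzyme Erap1 (0.70), the peptide transporter chain Tap2 (0.57) and Stat2 (0.46). Tap1, the neighbour of Psmb9, was at -0.16 in MKOC and 0.29 in TJ cells, and Nlrc5, the activator of MHC class I genes, at -0.02 and 0.58. The list summed to 2444 and 2932 TPM in untreated and 2675 and 3254 TPM in treated MKOC and TJ cells. Its part in the values of Psmb8 to Psmb10 and of Psme1 was not tested.

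Among 18 measured proteasome-associated genes, 11 fell and 3 rose with rapamycin (median log2 fold change -0.33), where 17.4% of all genes fell and 17.5% rose. Uchl5, a deubiquitinase of the 19S particle, fell most, from 88.6 and 96.2 TPM in untreated MKOC and TJ cells to 46.5 and 43.6 TPM (log2 fold change -1.02, SE 0.11, edgeR adjusted p = 0.000114). Rad23b, a shuttle that brings ubiquitinated proteins to the proteasome, fell by 0.71, the ligase Ube3c by 0.55, the deubiquitinase Usp14 by 0.49 and Adrm1, the ubiquitin receptor that holds Uchl5, by 0.47. Smaller falls included those of Ubqln1, AI314180 (Ecpas), Txnl1, Akirin2 and Zfand5, between 0.31 and 0.43. The genes that rose were Nub1 (0.63), Ubqln2 (0.62) and Ubqln4 (0.32), and Pomp, the maturation factor of the 20S core, did not pass (-0.12, edgeR adjusted p = 0.369). Of 11 tested enzymes and relatives of NRF1, 4 fell and 3 rose, against the same shares of all genes. The protease Ddi2, which releases NRF1, fell by 0.33, and Ufd1l, Nploc4 and Sel1l, which act in its retrotranslocation from the endoplasmic reticulum or in related degradation, fell by 0.45, 0.28 and 0.30. Maff (0.89), a small MAF partner, Syvn1 (0.47) and Nfe2l2 (0.39), which encodes NRF2, rose. Among genes of ubiquitin supply, Rps27a (-0.45), which encodes ubiquitin fused to a ribosomal protein, and the activating enzyme Uba1 (-0.31) fell. Of the cell type markers, 3 of 6 tested epithelial genes (Krt8, Krt18 and Cldn4), 3 of 7 fibroblast genes (Vim, Dcn and Col3a1, the last on 5 to 18 counts per kidney library) and 1 of 3 immune genes (Csf1r) rose with rapamycin and 0 fell, against 17.5% and 17.4% of all genes, and their part in the values of the proteasome genes was not tested.

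The tumor-derived TJ line was then compared with MKOC cells, with treatment as a covariate. The share of proteasome genes that separated the lines was near that of all genes: 4 of 47 passed edgeR's quasi-likelihood test, compared with 8.79% of all 12952 genes. Psmb8 was higher in TJ cells, at 38.5 and 66.9 CPM against 23.3 and 24.6 CPM (log2 fold change 1.06, SE 0.16, edgeR adjusted p = 0.00292). Psmd10 was higher as well, at 42.6 and 50.9 CPM against 32.1 and 34.3 CPM (0.47, SE 0.11). Psma1 was lower in TJ cells, at 206 and 155 CPM against 265 and 202 CPM (-0.40, SE 0.10), and so was Psmd13, at 145 and 116 CPM against 187 and 143 CPM (-0.35, SE 0.10). In Psma1 and Psmd13 the lines overlapped, because the treated MKOC library lay below the untreated TJ library. The median over the tested proteasome genes was -0.03. With 1 library left out, at most 1 of the 4 genes passed. Of the interferon and MHC class I list, 10 of 17 were higher in TJ cells and 0 lower, and their part in the value of Psmb8 was not tested.

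Between the untreated kidney lines and the MEF lines, which differ in cell type, genotype and origin at once, 1 of the 47 genes passed, against 9.93% of 13473 genes tested. Psmd8, a subunit of the 19S lid, was at 89.5 and 103 CPM in the MEF libraries labelled Tsc2+/+ and Tsc2-/- and at 277 and 226 CPM in untreated MKOC and TJ cells (log2 fold change 1.38, SE 0.20, edgeR adjusted p = 0.0364). Leaving out either kidney line ended the call. Psmc4 was at 66.6 and 126 CPM in the MEF libraries and 244 and 218 CPM in the kidney lines and did not pass (log2 fold change 1.26, SE 0.35). Psmb10 was at 86.7 and 28.5 CPM against 16.7 and 18.4 CPM (-1.73, SE 0.61), also without passing. The MEF libraries differed from each other more than the kidney lines did in both.

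In MEFs, the library labelled Tsc2-/- was set against the library labelled Tsc2+/+ without a test, since each is 1 library. TPM was kept here, with the effect of short transcripts on it, and on CPM the median of the proteasome genes relative to all genes was 0.007. The log2 ratio of TPM with 1 added had a median of 0.45 over 12771 genes with at least 1 TPM in either library, and values are given relative to that median. The proteasome genes as a group lay near it: 26 of 47 were above and their median was 0.09, although 39 of 47 were above 0 before the median was subtracted. At least 1.5-fold above the median of all genes were 4 proteasome genes, and 6 were at least 1.5-fold below, compared with 24.0% and 21.0% of all genes. The constitutive 20S and 19S genes had at least 2163 counts each in these libraries, apart from Psma8, so counting error was small for them. The interval from counting for Psmb5, for example, was 343 to 365 TPM in the library labelled Tsc2-/-.

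**Figure D5:**
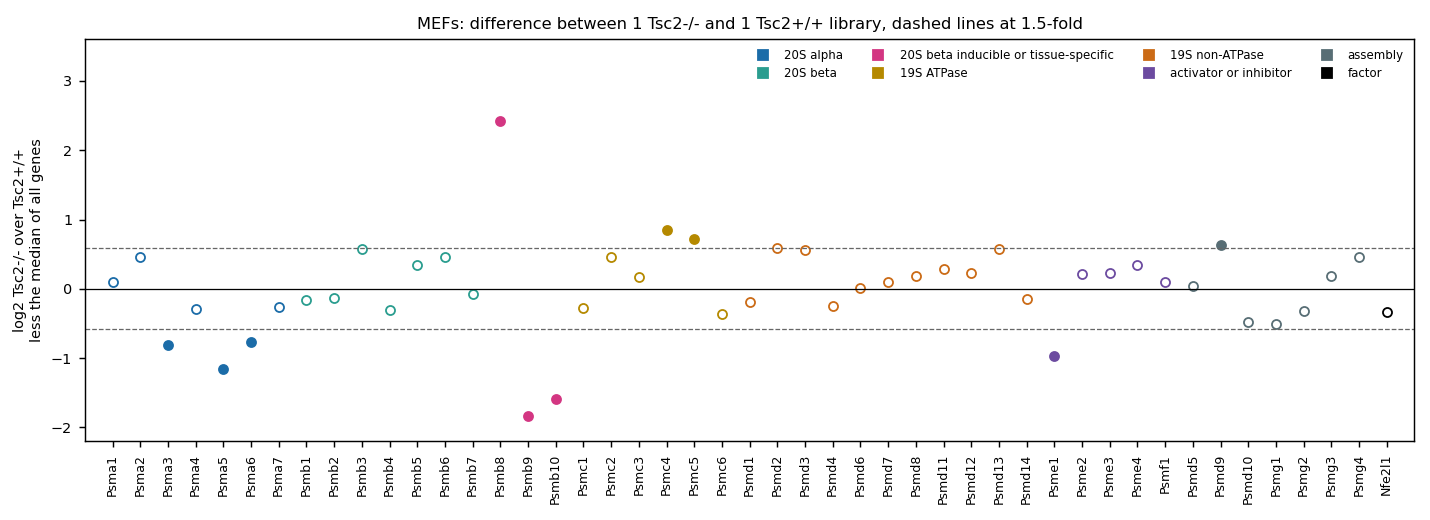
Log2 ratio of TPM plus 1 between the MEF library labelled Tsc2-/- and the one labelled Tsc2+/+, less the median of all genes, for the 47 proteasome genes with at least 1 TPM (1 point per gene, no replicates; filled points lie at or beyond the dashed 1.5-fold lines). Psmb8 is highest at 2.42, Psmb9 and Psmb10 are lowest at -1.83 and -1.60, and most constitutive genes lie between the dashed lines.

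The inducible genes differed most between the MEF libraries, and not in 1 direction. Psmb8 was at 0.381 TPM from 17 counts in the library labelled Tsc2+/+ and at 9.11 TPM from 145 counts in the library labelled Tsc2-/-, a relative log2 difference of 2.42. Its size depends on the 1 TPM added, which is more than the level in the library labelled Tsc2+/+. Psmb10 was at 91.4 and 40.9 TPM (-1.60), Psmb9 at 5.78 and 1.61 TPM (-1.83) and Psme1 at 198 and 139 TPM (-0.96). Psme2 had 237 and 108 CPM, a log2 difference of -1.13, whereas its TPM, raised by the transcript of 185 bases, gave a relative value of 0.22. Of the interferon and MHC class I list, 15 of 17 genes were at least 1.5-fold below the median of all genes and 0 above, among them Cxcl10 (-5.04) and Tap1 (-3.10), and their part in these values was not tested. Cell type markers differed between the same libraries as well, with relative log2 values of 5.30 for Krt19, 3.98 for Krt18, 5.26 for Dcn, 2.61 for Thy1 and -2.11 for Vim, and their part was not tested either. Among constitutive genes, Psma5, Psma3 and Psma6 of the alpha ring were lower, at 276 and 170.1 TPM (-1.15), 233 and 181 TPM (-0.81) and 217 and 175 TPM (-0.76). The ATPases Psmc4, at 64.0 and 159 TPM (0.85), and Psmc5, at 128 and 288 TPM (0.72), and the chaperone Psmd9, at 14.1 and 31.1 TPM (0.63), were higher. Nfe2l1 was at 322 and 348 TPM (-0.34). Of the 32 genes that fell with rapamycin in the kidney lines, 19 were above and 13 below the median of all genes in the MEF comparison, 2 of them at least 1.5-fold above and 3 at least 1.5-fold below.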

How the data were processed

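The authors trimmed the paired reads and quantified transcripts with kallisto, whose version is not given in the sources used here. They deposited estimated counts and TPM for 88198 mouse transcripts in 6 libraries, although the methods name a human reference, and a table of fold changes between the MEF libraries, of which the gene symbols alone were used. Estimated counts and TPM were summed per symbol, and counts were rounded. The 1006 transcripts without a symbol held 0.372% to 0.468% of counts and were left out.

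Counts were filtered (filterByExpr), scaled by TMM and tested with edgeR 4.0.16 in R 4.3.3 (quasi-likelihood, Benjamini-Hochberg, threshold 0.05), with line and treatment as terms. The SE was computed from the test, as the absolute log2 fold change over the square root of its F statistic. Pairing by line comes from the labels, and deviations of the libraries of a line correlated at r = 0.607 over 12952 genes. Values per line are log2 differences of TMM-scaled CPM with 1 added. Untreated kidney lines and MEFs were compared with cell type as the only term. MEF values are log2 TPM with 1 added, over genes with at least 1 TPM in either library. Intervals are 95% Wilson intervals, and they and the floor of 3 counts cover counting error only. Steps were tested on simulated data. Members and lists were chosen with earlier results of these data known, and every member could be named. Some genes of the lists are not reported here. Alternatives were other normalizations, filters, pseudocounts and thresholds, DESeq2 1.42.0, limma 3.58.1 on log2 TPM, no cell line, left-out libraries and, chosen after seeing the data, transcripts of 300 bases or more, CPM and single lines.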

Additional observations from a re-analysis of the deposited data

Results flagged for a closer look

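For 3 of the 47 tested proteasome genes, the values with rapamycin had opposite signs in the MKOC and TJ lines. With rapamycin, Psmb9 changed by -0.339 on the log2 scale in MKOC cells and by 0.99 in TJ cells, and Psmb10 by -0.009 in MKOC cells and by 0.991 in TJ cells. Psmd8 changed by 0.027 in MKOC cells and by -0.036 in TJ cells, both close to 0. Each value compares 1 treated with 1 untreated library, and the difference between the lines was not tested.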

How the results depend on the processing

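With rapamycin, 31 of the 32 genes that fell also fell in all 6 alternatives that kept the line, and Psme1 rose in all 6; Psmb1 was the one lost. Without the filter on low counts 3 proteasome genes rose (Psmb8, Psmb10 and Psme1) and 34 fell (Psma7 and Psmg3 added), and DESeq2 called 1394 of all genes higher against 2267. Without the replicate block, that is without pairing by line, 14 proteasome genes fell and 0 rose, with 716 of all genes lower and 559 higher. With 1 library left out and no block, a lone library being assumed to vary like the others, 0 to 1 proteasome genes fell and 0 to 1 rose, and 0 to 291 of all genes were lower (60 without untreated MKOC and 246 without treated TJ cells) and 0 to 322 higher (36 and 285). The median log2 change of -0.447 was -0.412 with upper-quartile normalization and -0.378 in TJ cells alone, and with libraries left out ranged from -0.463 to -0.411.

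For TJ against MKOC cells, 4 proteasome genes and 1139 of all genes passed. The counts were 9 and 1753 without the filter, 2 and 611 with DESeq2, 2 and 576 with limma on log2 TPM, and 0 to 1 and 0 to 107 with a library left out (55 without treated TJ cells). For kidney lines against MEFs, 1 and 1338 passed, against 10 and 4185 with DESeq2 and 0 with limma, and 0 to 23 and 0 to 7924 with a library left out.

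In MEFs, 4 proteasome genes were higher and 6 lower, with 3066 and 2687 of all genes and a median of 0.093. The median was 0.06 with 0.1 TPM added, 0.034 without transcripts under 300 bases and 0.007 in CPM. With 5 TPM added it was 0.164, with 7 higher and 1782 of all genes lower. Over genes of at least 10 TPM in both libraries it was 0.168, with 7 proteasome genes higher and 1204 higher and 1111 lower of all genes. Without a filter, which puts the median of all genes at 0, it was 0.501, with 21 higher and 3 lower, and 5769 and 1366 of all genes. At 2-fold, 1 was higher and 3 lower, with 1713 and 1318 of all genes. None of these medians changed sign. Depth limits Psma8, Psmb9, Psmb11 and, in the library labelled Tsc2+/+, Psmb8.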
